A study of Mus musculus with 14 samples.

Results

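The genes described here encode the proteins of the mitochondrial ribosome. They were taken as the protein-coding genes whose symbol starts with Mrpl or Mrps followed by a digit, which gave 78 of the 54532 genes in the count table, 22046 of them protein-coding. The ileum mucosa of 14 age-matched adult male mice on a high-fat diet (HFD) for 15 weeks was measured by RNA sequencing, 7 WT and 7 IKO, 1 library per mouse. All mice carried floxed alleles of Ncor1, which encodes the nuclear receptor corepressor NCoR1. WT mice (NCoR1 flox/flox) had no Cre, whereas in IKO mice Cre under the villin promoter deleted the gene in intestinal epithelial cells (IECs). The labels name IECs, but the mucosa was scraped, so other cells of the mucosa were present and retained their Ncor1. In such bulk RNA, fewer cells of a type and less RNA per cell cannot be told apart.

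The mitochondrial ribosome translates the few proteins that mitochondrial DNA (mtDNA) encodes, all of them parts of the respiratory chain and ATP synthase. Its RNAs are made in the mitochondrion, while its proteins are encoded in the nucleus, translated in the cytosol and imported. It consists of a large subunit, which joins amino acids, and a small subunit, which reads the mRNA, and each contains proteins with a counterpart in bacterial ribosomes and proteins that only mitochondria have. The enterocytes of the ileum are rich in mitochondria and oxidize fatty acids.

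Of the 78 genes, 51 encode large subunit proteins and 26 encode small subunit proteins by their present assignment. The symbols do not always give the subunit: Mrps30 and Mrps18a name proteins of the large subunit, and Mrpl58 names a release factor homologue built into the large subunit. Mrps36 belongs to neither subunit and is now known as a component of the oxoglutarate dehydrogenase complex. The genes lie on 17 chromosomes, with 11 on chromosome 11 and 8 on chromosome 17. Counting could be ambiguous for part of them, since 41 overlap another gene, and at 20 the overlapping genes held more than 10% of the member's own counts.

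Libraries held 14749669 to 21557468 counts, of which these genes took 24421 to 73097, or 0.154% to 0.405%. Ncor1 fell by 1.41 on the log2 scale in IKO mice (SE 0.18, edgeR adjusted p = 0.00051), with 106 to 195 CPM (counts relative to library size) in WT and 31.7 to 64.0 CPM in IKO mice. The share of mtDNA transcripts was 50.3% in IKO 4 and 23.9% in WT 3, against 3.49% to 10.3% in the other 12 mice. Markers of enterocytes were abundant in both genotypes (10 genes, summed 21940 to 92506 CPM in WT and 48670 to 70666 CPM in IKO mice). Markers of smooth muscle (6 genes) summed to 10855 CPM in WT 4, with a median of 22.6 CPM in WT and 10.5 CPM in IKO mice. The median log2 fold change of the smooth muscle list was -3.10 in edgeR and 1.41 in DESeq2, with all 6 genes below 0 in the former and above 0 in the latter. Among 14 lists of cell type markers, edgeR called Fabp1 higher and Avil lower, and DESeq2 also called Spink4 higher and Neurod1, Dclk1, Mki67, Pdgfra and Cd4 lower. The part of cell composition in the results was not tested.

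Of the 77 mitochondrial ribosomal protein genes that passed the filter on low counts, 2 rose in IKO mice, Mrpl45 and Mrpl43, and 0 fell (edgeR quasi-likelihood test, adjusted p under 0.05). The number that rose was 0 when any one of IKO 1, IKO 5, WT 1 or WT 7 was left out, and 1 without IKO 2. With all mice in, the 2 genes were 2.60% of the members, below the 4.38% of all 13846 genes tested that were called higher. Of all genes, 4.28% were called lower. The log2 fold change was above 0 in 74 of 77 members, against 43.5% of all genes. The median member stood at 0.31 on the log2 scale, with the middle members between 0.20 and 0.47 (25th to 75th percentile) and a range of -0.11 to 0.79, while the median of all genes was -0.09. Without IKO 2 the members' median was 0.15. The differences were thus small, in one direction, and for most genes within the spread between mice. Without adjustment, 20 members had a p under 0.05 and a higher level in IKO mice and 0 had a lower level, against 11.9% and 18.5% of all genes. DESeq2 called 12 of 77 higher and 0 lower, where it called 7.62% of all genes higher, and its calls included both of those by edgeR.

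**Figure D1:**
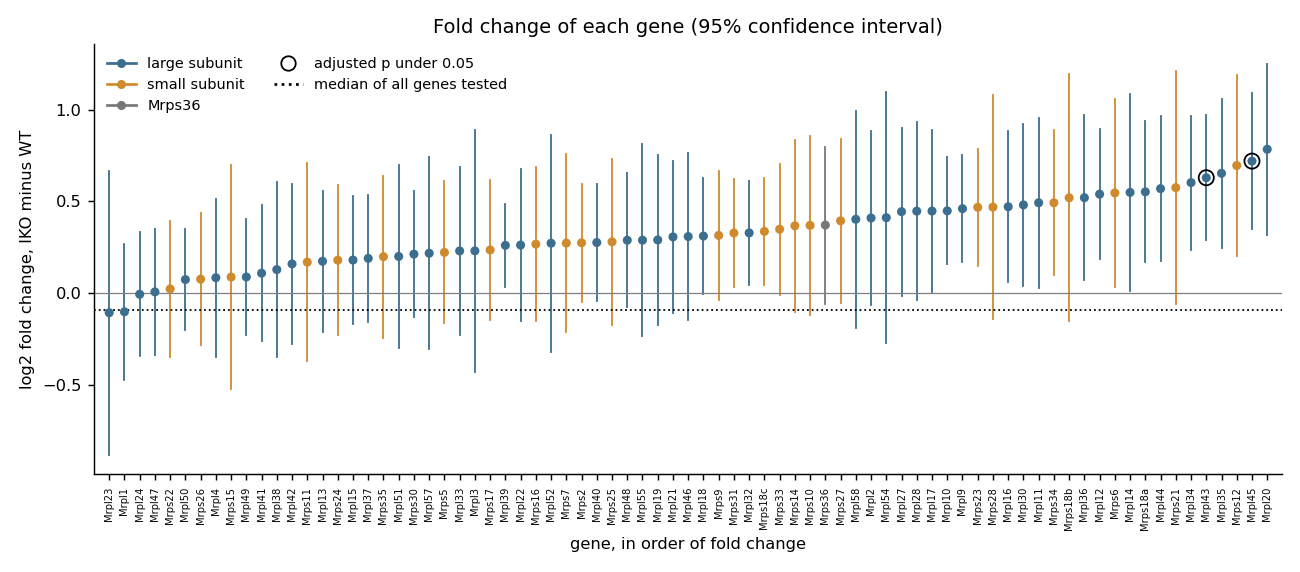
Log2 fold change (IKO minus WT, y axis) of each of the 77 tested genes (x axis, ordered by fold change), with colours for the subunit. Bars are approximate 95% intervals from the SE and a normal distribution. They are narrower than the edgeR test implies: that of Mrpl14 runs from 0.01 to 1.09, but its unadjusted edgeR p was 0.063. Nearly all points lie above the dotted median of all genes (-0.09), but only Mrpl43 and Mrpl45, circled, passed the adjusted p of 0.05.

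Mrpl45 encodes a large subunit protein at the mouth of the exit tunnel, where the ribosome is tethered to the inner membrane (ENSMUSG00000018882, mm10 chromosome 11, 97315716 to 97329920, plus strand). Its level was 28.1 CPM in the lowest, 30.6 in the median and 39.4 in the highest WT mouse. In IKO mice it was 34.9, 52.3 and 89.8 CPM. The genotypes overlapped in 1 IKO mouse, IKO 3, and the other 6 lay above every WT mouse. The log2 fold change was 0.72 (SE 0.19, edgeR adjusted p = 0.0320), a 1.65-fold difference with an approximate 95% interval of 1.27 to 2.13.

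Mrpl43 encodes another large subunit protein without a bacterial counterpart (ENSMUSG00000025208, chromosome 19, 45005014 to 45006442, minus strand). WT mice were tightly grouped, at 38.1 CPM in the lowest, 39.8 in the median and 45.9 in the highest. IKO mice ranged from 42.6 through a median of 61.9 to 100.5 CPM, and again IKO 3 alone fell within the WT range. The log2 fold change was 0.63 (SE 0.17, edgeR adjusted p = 0.0389).

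Mrpl34, a small bacterial-type protein of the large subunit (ENSMUSG00000034880, chromosome 8, 71464959 to 71465747, plus strand), was the only member whose genotypes did not overlap, a pattern that 1.83% of all genes showed in this direction. It measured 33.8 to 43.3 CPM in WT mice (median 41.1) and 46.0 to 112.8 CPM in IKO mice (median 51.0). Its log2 fold change of 0.60 (SE 0.19) did not pass (edgeR adjusted p = 0.0538). Mrpl20, also of the large subunit, had the largest log2 fold change, 0.79 (SE 0.24), and did not pass either (edgeR adjusted p = 0.0515). WT mice had 27.3 to 52.0 CPM of Mrpl20 (median 32.8) and IKO mice 36.8 to 118.6 CPM (median 48.4). All 7 IKO mice lay above the WT median, but WT 4, the highest WT mouse, overlapped with 4 of them.

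**Figure D2:**
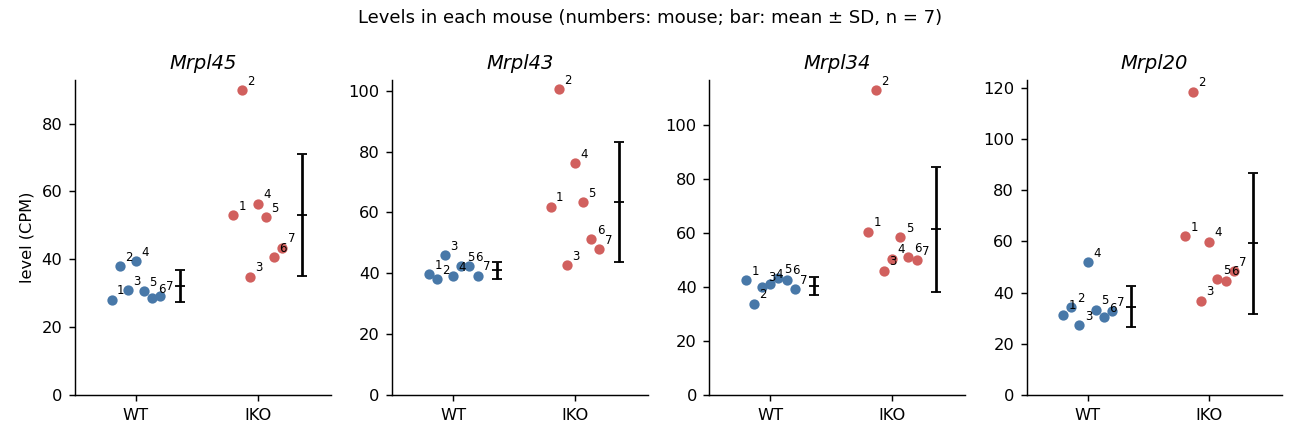
Levels in CPM (y axis, from 0) of Mrpl45, Mrpl43, Mrpl34 and Mrpl20 in each WT and IKO mouse, with the mouse number beside each point and mean ± SD (n = 7) as bars. IKO 2 was the highest mouse and IKO 3 the lowest IKO mouse for all 4 genes.

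The stretches of DNA just before the starts of Mrpl43, Mrpl45 and Mrpl34 are shown because they hold letters known from promoters of mitochondrial genes, where the factors NRF1 and GABPA (an ETS factor) bind. They are RefSeq sequences of build GRCm38.p6, the assembly also called mm10, on the strand of the gene and ending at the base before its start. Capitals mark a match to GCGCANGCG, as bound by NRF1, or to CCGGAAG, as bound by GABPA and other ETS factors.
Mrpl43 (chr19:45006443-45006557, minus strand): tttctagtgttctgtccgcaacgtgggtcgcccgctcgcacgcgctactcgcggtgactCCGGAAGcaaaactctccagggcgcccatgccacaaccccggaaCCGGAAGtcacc
Mrpl45 (chr11:97315566-97315715, plus strand): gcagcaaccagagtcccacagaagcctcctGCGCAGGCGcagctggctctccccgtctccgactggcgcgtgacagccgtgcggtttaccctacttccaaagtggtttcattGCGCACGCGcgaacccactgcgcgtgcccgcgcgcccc
Mrpl34 (chr8:71464776-71464925, plus strand): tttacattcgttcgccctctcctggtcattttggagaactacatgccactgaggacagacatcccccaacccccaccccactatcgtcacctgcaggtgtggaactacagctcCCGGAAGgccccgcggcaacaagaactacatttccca
The Mrpl43 stretch is the whole interval between Mrpl43 and Twnk, which runs the other way and encodes the mtDNA helicase. It holds 2 ETS matches, that of Mrpl45 holds 2 NRF1 matches, and that of Mrpl34 holds 1 ETS match. The Mrpl43 stretch also holds a match to CGCANGCGC, another spelling for NRF1, which is not in capitals. The RefSeq start of Mrpl34 lies 33 bases from that in the count table, and the starts of the other 2 genes are the same in both.

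RefSeq windows of 300 bases, from 250 before to 50 after the start, were at hand for 69 of the 78 genes. Mrpl4, Mrpl13, Mrpl15, Mrpl19, Mrpl38, Mrpl54, Mrps28, Mrps34 and Mrps35 had no entry. On either strand, CCGGAAG occurred in 26 of the 69 (37.7%), against 19.8% of the 10119 tested genes with a window and 9.93% of all 27025 genes. GCGCANGCG occurred in 16 (23.2%), against 14.7% and 7.03%. AAGATGGC, as bound by YY1, occurred in 12 (17.4%), against 5.20% and 3.19%. At least 1 of these 3 was found in 44 of the 69 genes. By contrast, the nuclear receptor element AGGTCA, letters read by receptors that NCoR1 binds, occurred in 11 (15.9%), against 15.0% of tested genes, and TATAAA in 5 (7.25%), against 9.21%. Altogether 14 spellings were searched, several of them overlapping, and those given were chosen with the counts known. A match describes letters and is no evidence of binding. The median log2 fold change was 0.34 in members with the ETS letters and 0.31 in those without, and 0.45 with and 0.29 without the NRF1 letters. It was 0.30 with and 0.31 without the YY1 letters, 0.24 and 0.32 for AGGTCA, and 0.29 and 0.33 for TATAAA. Among the other spellings searched, it was 0.28 with and 0.42 without GGGCGG, and 0.53 with (4 members) and 0.31 without AAGGTCA. These differences were not tested.

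Both subunits had similar medians. That of the log2 fold changes was 0.30 over the 50 tested large subunit genes (47 above 0) and 0.32 over the 26 small subunit genes (26 above 0). In the large subunit edgeR called 2 genes (4%) and DESeq2 10 (20%), against 4.38% and 7.62% of all genes called higher. In the small subunit edgeR called 0, and DESeq2 called 2 (7.69%). At an unadjusted p under 0.05 in edgeR, 5 of them were higher (19.2%, against 11.9% of all genes). Within the large subunit it was 0.37 for the 30 genes with a bacterial counterpart and 0.27 for the 20 tested without one, a group that includes both genes called by edgeR. Within the small subunit it was 0.29 for 16 bacterial-type genes and 0.34 for 10 mitochondrial ones. The ratio of the mean FPKM (fragments per kilobase, scaled for depth, so a level per length) of large subunit genes to that of small subunit genes lay between 1.25 and 1.44 in all 14 mice.

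Mrps12, the small subunit protein at the decoding site, had the largest log2 fold change of its subunit, 0.70 (SE 0.25, edgeR adjusted p = 0.0848). Its levels were 15.2 ± 5.73 CPM in WT and 24.6 ± 6.17 CPM in IKO mice (SD, n = 7). Mrpl35 of the large subunit stood at 0.65 (SE 0.21, edgeR adjusted p = 0.0580), with 8.63 to 17.9 CPM in WT and 17.5 to 37.6 CPM in IKO mice, where 6 of 7 IKO mice exceeded every WT mouse. Mrpl12, of the stalk that recruits translation factors, had 27.2 to 42.5 CPM in WT and 39.1 to 84.0 CPM in IKO mice (log2 fold change 0.54, SE 0.18, edgeR adjusted p = 0.0701). None of these passed the threshold.

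The 3 paralogs Mrps18a, Mrps18b and Mrps18c descend from a single bacterial protein, although Mrps18a and Mrps18b are counted here among those without a bacterial counterpart, after their present names. Their log2 fold changes were 0.55 (SE 0.20), 0.52 (SE 0.34) and 0.34 (SE 0.15), and none passed (edgeR adjusted p = 0.0811, 0.314 and 0.145). Mrpl58 (0.40, SE 0.30) and Mrps30 (0.21, SE 0.18) did not pass (edgeR adjusted p = 0.377 and 0.425), nor did Mrps36, which is no ribosomal protein (0.37, SE 0.22, edgeR adjusted p = 0.257). Without Mrps36 the median was 0.31 with 73 of 76 above 0.

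At the other end, Mrpl23 (-0.11, SE 0.40), Mrpl1 (-0.10, SE 0.19), Mrpl24 (-0.01, SE 0.17), Mrpl47 (0.01, SE 0.18) and Mrps22 (0.02, SE 0.19) had the smallest log2 fold changes, with edgeR adjusted p from 0.744 to 0.986. The sign of these values was not fixed: of 27 other ways of processing, 17 turned it for Mrpl24, 13 for Mrpl47, 9 for Mrps22, 3 for Mrpl23 and 1 for Mrpl1. Mrpl23 varied widely between mice, at 28.0 to 104.5 CPM in WT and 23.5 to 118.1 CPM in IKO mice.

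Levels per length differed widely between genes. The highest mean FPKM over the 14 mice were 88.3 for Mrps21, 83.1 for Mrpl34, 65.4 for Mrpl54 and 48.8 for Mrpl27. In WT mice these were 69.8 ± 29.4, 65.0 ± 5.60, 55.3 ± 25.5 and 40.7 ± 11.2 FPKM (SD, n = 7), so that neighbours in this order did not differ beyond their spread. Apart from Mrpl53, the lowest were Mrps10 (1.99 FPKM), Mrpl19 (2.02 FPKM) and Mrps30 (2.11 FPKM), which also lay within each other's SD. The length used in the table equals the merged exons of all transcripts for 73 of the 78 genes, from 607 bases for Mrpl34 to 8631, including 8079 for Mrps10, and how far that length sets its FPKM was not tested.

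Mrpl53, of the large subunit, was listed at 0 counts in all 14 libraries, which allows at most 0.106 to 0.328 CPM per library (3 counts). The gene lies wholly inside the annotated span of Gm42688 on the same strand, which itself held 0 to 26 counts. Whether reads shared by both genes were set aside was not tested.

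The direction was carried unequally by the IKO mice. Averaged over the 77 genes, the log2 level relative to the WT mean was 1.08 in IKO 2, 0.46 in IKO 4, 0.34 in IKO 1, 0.15 in IKO 5, 0.07 in IKO 7, 0.02 in IKO 6 and -0.08 in IKO 3. WT mice lay between -0.15 in WT 3 and 0.24 in WT 4 (SD 0.12). Hence 3 of 7 IKO mice exceeded every WT mouse, and the other 4 lay within the WT range. IKO 2 was the highest of all 14 mice for 67 of the 77 genes, and IKO 3 was the lowest IKO mouse for 48. Without IKO 2 the median fold change was 0.15 on the log2 scale with 57 of 77 above 0 (41.3% of all genes), and Mrpl45 alone was called (0.55, edgeR adjusted p = 0.0437). Without IKO 2 and IKO 4 the median was 0.08 with 51 above 0 (40.2% of all genes) and 0 called.

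**Figure D3:**
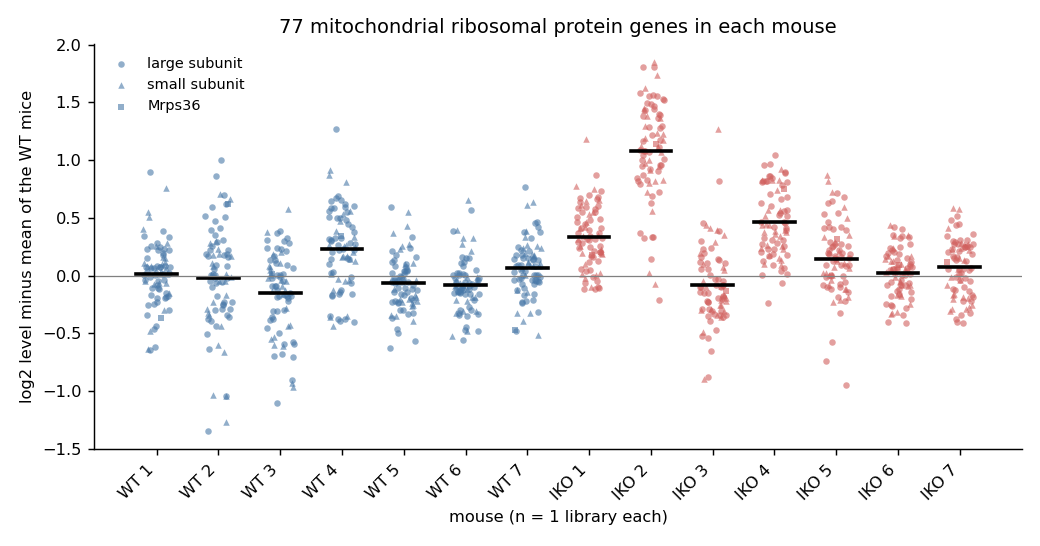
Each point is 1 of the 77 tested genes in 1 mouse (x axis), as its log2 level minus the mean of the WT mice (y axis), with black bars at the mean of the genes. IKO 2 (1.08), IKO 4 (0.46) and IKO 1 (0.34) stand above the WT mice, and the other 4 IKO mice lie among them.

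Gene length moved with this result. The members are short, with a median of 2214 bases against 4024 for all genes tested, and over all genes the fold change declined with length. The 25 shortest members (607 to 1644 bases) had a median log2 fold change of 0.45, the next 26 (1664 to 3291 bases) 0.29 and the 26 longest (3332 to 8631 bases) 0.23. All tested genes of the same 3 length ranges had medians of 0.15 (1535 genes), 0.03 (3376 genes) and -0.15 (6530 genes). The members' median was above that of all genes in each range. In IKO 2 the median gene of the shortest range stood 0.66 above the WT mean and in IKO 4 0.35 above it, while genes longer than any member stood at -0.67 in both. In the other 12 mice the shortest range lay between -0.18 and 0.20. The longest genes were also low in IKO 5 (-0.37) and IKO 1 (-0.29), against -0.17 to 0.15 in WT mice. The part of length in the members' fold changes was not tested.

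**Figure D4:**
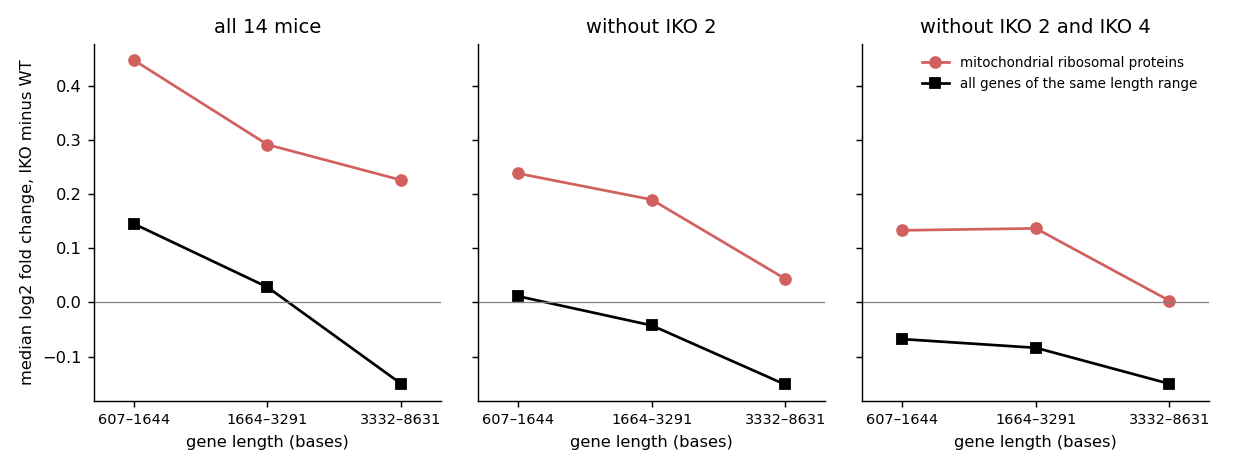
Median log2 fold change (y axis) of members (red circles) and of all genes tested (black squares) in 3 ranges of gene length in bases (x axis), for all 14 mice, without IKO 2, and without IKO 2 and IKO 4. The longest range has the lowest median in every panel, the members' medians move down as the mice are left out, and they stay above those of all genes in every range.

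Mitochondrial biogenesis couples nuclear genes for respiration, translation, import and mtDNA upkeep through coactivators such as PGC-1α (Ppargc1a) and PGC-1β (Ppargc1b) and the factors NRF1, GABPA and ERRα (Esrra). None of these 5 genes passed the edgeR test, and DESeq2 called Ppargc1b (adjusted p = 0.0409). Their log2 fold changes were -0.12 (SE 0.31) for Ppargc1a, 0.73 (SE 0.27, edgeR adjusted p = 0.0911) for Ppargc1b, 0.07 (SE 0.12) for Nrf1, -0.28 (SE 0.23) for Gabpa and 0.07 (SE 0.25) for Esrra. Ppargc1b measured 2.83 to 5.84 CPM in WT and 3.79 to 11.5 CPM in IKO mice, all 7 of which lay above the WT median. Over 15 tested regulators of mitochondrial biogenesis the median was -0.16, with 3 above 0, against -0.09 and 43.5% for all genes. By edgeR, 0 rose and 1 fell, Creb1, the cAMP response factor (-0.85, SE 0.23, edgeR adjusted p = 0.0379). At an unadjusted p under 0.05 in edgeR, 1 regulator was higher and 4 were lower, against 11.9% and 18.5% of all genes. DESeq2 called 1 higher and 2 lower.

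Genes that maintain and transcribe mtDNA had values mostly below 0. Of 17, 1 had a log2 fold change above 0, with a median of -0.26, against 43.5% and -0.09 for all genes. Both edgeR and DESeq2 called 0. At an unadjusted p under 0.05 in edgeR, 4 were lower and 0 higher, against 18.5% and 11.9% of all genes. Tfam, which packages mtDNA, stood at -0.18 (SE 0.15, edgeR adjusted p = 0.409) and Polrmt, the mitochondrial RNA polymerase, at -0.41 (SE 0.18, edgeR adjusted p = 0.145). The 12 tested mtDNA-encoded protein genes had a median of 1.24, with 0 calls by edgeR (4 higher at an unadjusted p under 0.05) and 1 by DESeq2. The median was 1.44 without IKO 2 and -0.44 once IKO 4 was left out as well. The 2 mitochondrial rRNAs, the RNA core of the same ribosome, had a median of 0.74, of 0.90 without IKO 2 and of -1.44 without both mice. The fits without both IKO mice kept WT 3 and WT 2. Averaged over the mtDNA-encoded protein genes, the log2 level relative to the WT mean was 1.80 in WT 3 and 0.92 in WT 2. It was -0.78 to -0.25 in the other WT mice and -0.61 to 0.34 in the IKO mice kept. Over the rRNAs, WT 3 and WT 2 stood at 2.46 and 1.43. Other WT mice lay at -1.45 to 0.19 and those IKO mice at -1.71 to 0.12. The mice left out were IKO 4, at 4.35 over the protein genes and 3.92 over the rRNAs, and IKO 2, at -0.08 and -0.21. How far IKO 4 set the positive medians, and WT 3 and WT 2 the negative ones, was not tested.

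Other parts of mitochondrial translation had medians near 0. Medians of the log2 fold change stood at -0.04 over 25 genes of ribosome assembly and rRNA modification (12 above 0) and at 0.01 over 20 genes of aminoacyl-tRNA synthesis (10 above 0). In the first, edgeR called 0 (1 higher and 3 lower at an unadjusted p under 0.05) and DESeq2 called 1 higher. In the second, both tools called 0 (1 higher and 2 lower at an unadjusted p under 0.05 in edgeR). Over 15 translation factors it was 0.09, with 10 above 0. By edgeR 0 rose and 1 fell. At an unadjusted p under 0.05 in edgeR, 5 were higher and 3 lower, against 11.9% and 18.5% of all genes. DESeq2 called 1 in each direction. The gene that fell was Guf1, an elongation factor of the LepA type (-0.90, SE 0.26, edgeR adjusted p = 0.0467). Tufm, the elongation factor that brings tRNAs to the ribosome, stood at 0.63 (SE 0.24, edgeR adjusted p = 0.0992) and Lrpprc, which stabilizes mitochondrial mRNAs, at 0.37 (SE 0.16, edgeR adjusted p = 0.137). The 5 mitoribosomal proteins with other symbols (Dap3, Ptcd3, Chchd1, Aurkaip1 and Gadd45gip1) had a median of 0.25 with 4 above 0, and 0 were called by edgeR or DESeq2 or had an unadjusted p under 0.05 in edgeR.

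Genes of respiration, fatty acid oxidation and protein import had higher medians than the ribosomal proteins. Of 38 nuclear-encoded respiratory chain and ATP synthase subunits, 38 were above 0 with a median of 0.61, and 12 rose, among them Sdha of complex II, Cyc1 of complex III, Cox5a of complex IV and Atp5a1 of the ATP synthase. Of 18 genes of mitochondrial fatty acid oxidation, 18 were above 0 with a median of 0.82, and 11 rose (Cpt2, Slc25a20, Acadvl, Acadl, Hadha, Hadhb, Hadh, Echs1, Acaa2, Eci2 and Decr1). Of 23 protein import genes, 21 were above 0 with a median of 0.51, and 3 rose: Timm8b, Timm17a and the processing peptidase Pmpcb. These counts are from edgeR, and DESeq2 called 21, 13 and 8 higher in the 3 lists. Without IKO 2 and IKO 4 the medians of these lists were 0.40, 0.75 and 0.27, with 6, 8 and 1 calls by edgeR. Of all genes, 3.76% were then called higher, and the median of the mitochondrial ribosomal proteins was 0.08. The difference between the lists was not tested. The proteins of the cytosolic ribosome (76 tested) had a median of 0.40 with 70 above 0 and 1 call by edgeR, Rpl39 (1.32%), against 6 by DESeq2 (7.89%). Their score was also highest in IKO 2, at 1.51, and without IKO 2 and IKO 4 their median was -0.05 with 35 above 0.

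**Figure D5:**
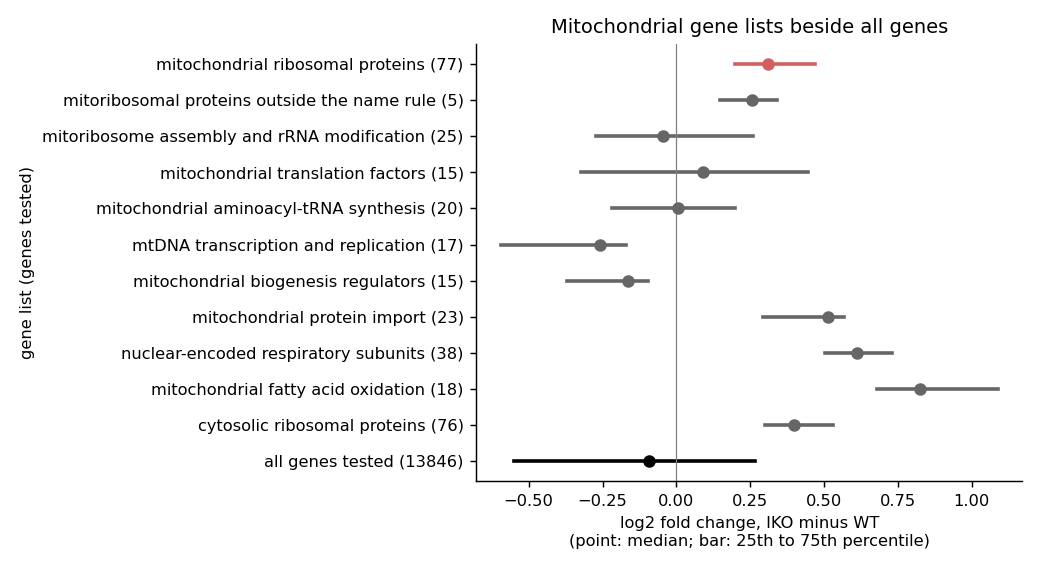
Median log2 fold change (point) and 25th to 75th percentile over genes (bar) for the mitochondrial ribosomal proteins (red), related gene lists (grey) and all genes tested (black), with the number of genes in parentheses. The mitochondrial ribosomal proteins (0.31) lie between the mtDNA maintenance genes (-0.26) and those of fatty acid oxidation (0.82).

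Some of these genes start near a neighbour that runs the other way. A protein-coding gene on the other strand began close by at 24 of the 78 (from 1000 bases before to 200 bases inside the start). How often this holds over all genes was not counted. Both genes were tested in 23 pairs. The members of these pairs had a median log2 fold change of 0.34 and their partners one of -0.12, close to that of all genes. Of the partners, 10 were above 0, and 2 rose by edgeR, Wdfy1 beside Mrpl44 and Klc4 beside Mrpl2. The log2 ratio of member to partner was higher in IKO mice in 18 of 23 pairs. With 74 of 77 members above 0, this count largely restates their shift. Ratios to genes elsewhere and the part of gene length were not tested. In 1 pair the difference passed an exact permutation test over all 3432 divisions of the mice, adjusted over the 23 pairs: Mrps18c and Helq, a DNA helicase, which start 29 bases apart. The ratio was 0.77 higher in IKO mice, all 7 of which lay above the WT median (two-sided exact p = 0.00058, the smallest this design can give, adjusted p = 0.0134), and with each mouse left out in turn the adjusted p was 0.0134 or 0.0268. For Mrpl43 and Twnk, 116 bases apart, the ratio was 0.68 higher (exact permutation p = 0.0111, adjusted p = 0.0965). Mrpl43 rose, whereas Twnk measured 6.75 to 20.5 CPM in WT and 7.29 to 17.8 CPM in IKO mice (log2 fold change -0.12, SE 0.26, edgeR adjusted p = 0.785). In the pair of Mrps12 and Sars2, the mitochondrial seryl-tRNA synthetase, the difference of the ratio was 0.58 (exact permutation p = 0.0425, adjusted p = 0.129).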

How the data were processed

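The authors made libraries from total RNA with a NEBNext Ultra kit and, per the submitters' processing notes, used HISAT2 2.0.5, featureCounts 1.5.0-p3, DESeq2 1.16.1 and build mm10. The use of strand and of reads shared by genes is not given in the sources used here. The deposited counts are raw whole numbers per gene. The deposited FPKM equal counts per length divided by DESeq2 size factors times 1 constant, as tested on the values (tolerance 0.001).

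Genotypes came from the sample titles. The whole table was filtered with filterByExpr, normalized with TMM and tested with edgeR 4.0.16 (glmQLFit, glmQLFTest, genotype as the only term) in R 4.3.3, with Benjamini-Hochberg adjustment over 13846 genes. CPM were computed with the TMM factors, and log2 levels with a prior count of 2. The alternatives used DESeq2 1.42.0 and limma 3.58.1. The count test was checked on simulated data. P-values and standard errors rest on 7 mice per genotype, and the bound beside a count of 0 covers counting error only.

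The members, gene lists and tests were chosen with earlier results of these data known. Named members are those with an adjusted p under 0.05, the 5 largest and 5 smallest fold changes, the 4 highest and 4 lowest mean FPKM, those without overlap of genotypes, those below the filter, and Mrps18a, Mrps18b, Mrps18c, Mrps30, Mrps36, Mrpl12 and Mrpl58. Other named genes are Ncor1, called genes of the related lists (not all are reported here) and 9 regulators or factors. The genes of paired starts and the promoters shown were chosen after their values were seen.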

Additional observations from a re-analysis of the deposited data

Results flagged for a closer look

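The spread of 7 mice was examined for 30 measures in each genotype (the levels of 23 named members and Ncor1, and 6 list scores), 60 groups in all, of which chance alone would single out about 1 in 20, or 3. A mouse stood far from the others in 12 groups, and in 11 of them it was IKO 2, the highest IKO mouse. The share of the group's range that lay between it and the next mouse was 0.691 for Mrpl20, 0.762 for Mrpl23, 0.783 for Mrpl34, 0.733 for Mrpl35, 0.609 for Mrpl45, 0.739 for Mrpl54, 0.686 for Mrps10, 0.606 for Mrps21 and 0.729 for Mrps30. It was 0.585 for the score of the small subunit genes and 0.576 for that of protein import. Mrpl34, for example, measured 112.8 CPM in IKO 2 and 60.5 CPM in the next IKO mouse, and Mrpl23 measured 118.1 and 46.0 CPM. The other case was Mrpl20 in WT 4, at 52.0 CPM against 34.2 CPM in the next WT mouse (0.719 of the range). These genes come from the same library, so the cases are not independent. The named members were also chosen in part by their values in these mice, so the 3 expected by chance is no strict baseline.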

How the results depend on the processing

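Calls depended on single mice, levels varied with gene length in some of them, and 27 alternatives were run. The number of members called higher (2) was 12 with DESeq2, 4 with RLE normalization, 1 without a filter, and 0 with limma on unfiltered log2(FPKM + 1), without WT 3 and IKO 4, and without WT 3, WT 4 and IKO 4. With 1 mouse left out it ranged from 0 (without IKO 1, IKO 5, WT 1 or WT 7) to 4 (without IKO 3 or IKO 6), with 1 without IKO 2, IKO 4 or WT 3. Members called lower were 0 in all 27. The median over the members (0.31) ranged from 0.15 (without IKO 2) to 0.35 with 1 mouse left out, that of the large subunit from 0.15 to 0.35 and that of the small subunit from 0.12 to 0.35. With limma-voom and sample quality weights these 3 medians were 0.15, 0.16 and 0.13. Leaving out IKO 2 and IKO 4 together was chosen after seeing the data, and gave 0 calls and medians of 0.0824, 0.076 and 0.0837. No alternative turned the sign of these medians. The median of all genes was -0.32 without a filter and 0.04 with limma on log2(FPKM + 0.1). Mrpl45 lost its call in 10 of 27 alternatives (edgeR, DESeq2 or limma adjusted p from 0.00475 to 0.0896) and Mrpl43 in 14 (0.00693 to 0.121), and both stayed above 0 in all.

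All genes called numbered 1200, 2571 with DESeq2, 1889 with limma-voom and quality weights, 706 without IKO 2 and IKO 4, 648 without WT 3 and IKO 4, 433 without WT 3, WT 4 and IKO 4, 614 with unfiltered limma, 508 without a filter, and 515 (without IKO 5) to 1371 (without WT 2) with 1 mouse left out. The pairs of opposite genes whose ratio differed numbered 1, and 1 to 5 with 1 mouse left out (3 without WT 6, 5 without IKO 6).

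Sample numbers are shared by the genotypes, and the labels do not say whether they pair the mice. Same-numbered mice did not deviate together (correlations of -0.31 to 0.23, and 1 of 7 WT mice best with its own number). Such correlations cannot show that the mice were unpaired, and the main test left the number out. With the number as a replicate block, 0 members were called, the median was 0.28 and all genes called numbered 362.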
